A study of Caenorhabditis elegans with 3 samples.

Results

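The vitellogenin genes vit-1 to vit-6 and the yolk receptor gene rme-2 of Caenorhabditis elegans were read in 3 libraries of messenger RNA. They are 7 genes of 45343 features in the deposited tables, chosen by their locus names. RNA came from whole animals synchronised to the L4 larval stage, with 1 library from each of 3 strains. These were the wild type N2, strain ZG24 with the ahr-1(ia03) allele and strain CZ2485 with the ahr-1(ju145) allele, where ahr-1 is the gene for the aryl hydrocarbon receptor of the worm, a bHLH-PAS transcription factor. The labels do not say what either allele changes in the gene, how many animals made up a sample, or their sex. With 1 library per strain no value has a replicate error, no difference between strains was tested, and a difference may be one between these libraries alone.

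Vitellogenins are large lipid-binding proteins related to vertebrate apolipoprotein B. In C. elegans hermaphrodites the intestine makes them, secretes them into the body cavity and so passes lipid and amino acids to the oocytes. The oocytes take yolk up by endocytosis through RME-2, a receptor of the LDL receptor superfamily. Transcription of the vit genes starts near the end of larval life, so an L4 culture samples them early and their level varies with the exact age of the animals.

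Levels are given as FPKM, the fragments of a feature relative to its length and to all that mapped, so levels of different genes can be set side by side. The number of fragments behind a value is unknown, and no counting interval is given. In each of the 3 libraries the order of FPKM was vit-6, vit-2, vit-5, vit-4, vit-3, vit-1 and, far lower, rme-2. Without a replicate spread it cannot be said which neighbours in that order differ. The closest pair was vit-4 and vit-3, whose FPKM ratio was 1.03 in N2, 1.00 in ia03 and 1.08 in ju145.

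**Figure D1:**
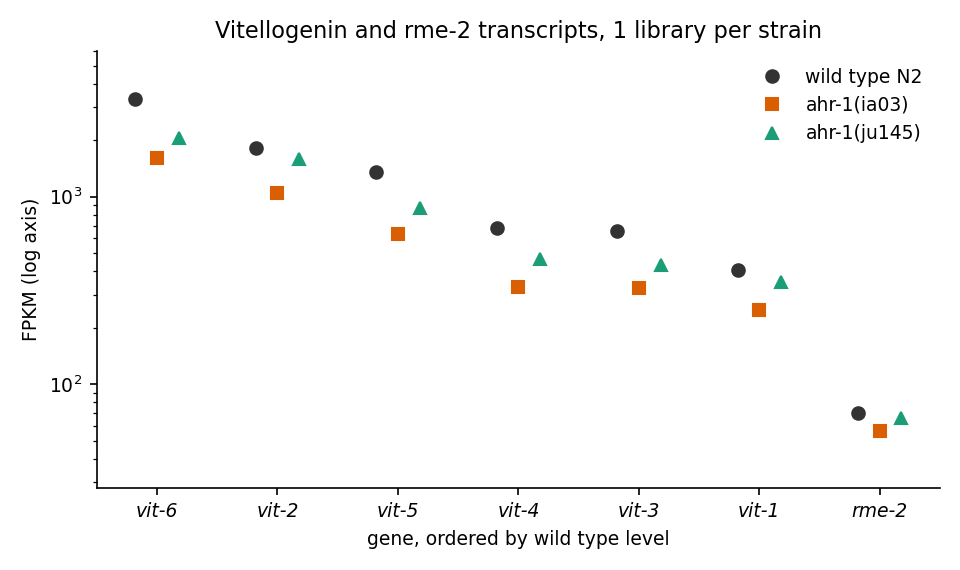
FPKM on a log axis of the 6 vitellogenin genes and rme-2, with 1 point per library and no error bars because each strain has 1 library. For every gene shown the wild type point is highest and the ia03 point lowest, and vit-6 is highest of the genes in each library.

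vit-6 lies on chromosome IV (8260992 to 8266449 as the files number it, genome build not given in the sources used here) and encodes the precursor of the smaller yolk proteins. Its FPKM was 3301 in N2, 1602 in ia03 and 2057 in ju145. It ranked 88 of 18698 features above 0 in N2, 159 of 18411 in ia03 and 151 of 18603 in ju145. The wild type library was thus the highest and the ia03 library the lowest of the 3.

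The other 5 vitellogenin genes lie on the X chromosome and encode the large yolk proteins. vit-2 (5101000 to 5106142) had an FPKM of 1816 in N2, 1046 in ia03 and 1579 in ju145. For vit-1 (7727849 to 7733257), the least abundant of the 6, FPKM was 404 in N2, 248 in ia03 and 349 in ju145. In both genes the ju145 value stood nearer to wild type than to ia03, on the log2 scale also after each of 5 rescalings of the libraries.

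vit-5 (3403456 to 3408591) had an FPKM of 1353 in N2, 632 in ia03 and 869 in ju145. The neighbouring genes vit-4 (3558825 to 3563978) and vit-3 (3567383 to 3572553) encode yolk polypeptides of the same kind and are close to it in sequence, so reads may be split among the 3 copies and their values are not independent. FPKM of vit-4 was 679 in N2, 328 in ia03 and 465 in ju145. That of vit-3 was 657 in N2, 327 in ia03 and 431 in ju145. On the log2 scale the ju145 value of these 3 genes stood nearer to ia03 than to wild type as deposited, but nearer to wild type after rescaling by the median ratio, the upper quartile or the intestine list.

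The receptor gene rme-2 (chromosome IV, 5469985 to 5473166) had an FPKM of 70.1 in N2, 56.6 in ia03 and 65.7 in ju145. Its libraries stood in the same order as those of the vit genes, over a narrower range. The summed FPKM of the 6 vit genes was 117 times that of rme-2 in N2, 73.9 times in ia03 and 87.5 times in ju145. Such ratios within a library do not depend on the scaling between libraries.

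Summed over the 6 genes, vitellogenin FPKM was 8211 in N2, 4183 in ia03 and 5751 in ju145. This was 0.461% of all FPKM in N2, 0.275% in ia03 and 0.336% in ju145. Over features of at least 300 nt of exon in the reference annotation the shares were 0.616%, 0.334% and 0.419%, so yolk transcripts took a smaller part of both mutant libraries by either measure. Because these transcripts have 4870 to 5088 nt of exon, they take a larger share of fragments than of FPKM. Estimated as FPKM times reference length, that share was 2.88% in N2, 1.55% in ia03 and 2.05% in ju145.

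The make-up of the vitellogenin sum differed little between the libraries. vit-6 made up 40.2% of it in N2, 38.3% in ia03 and 35.8% in ju145. vit-2 made up 22.1%, 25.01% and 27.5% in the same order. The share of vit-1 was 4.92%, 5.92% and 6.07%. The genes vit-1 and vit-2 therefore took a larger share in both mutant libraries, and both shares are set against the same wild type library. How far vit-1 and vit-2 share reads was not examined, so their values may not be independent.

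**Figure D2:**
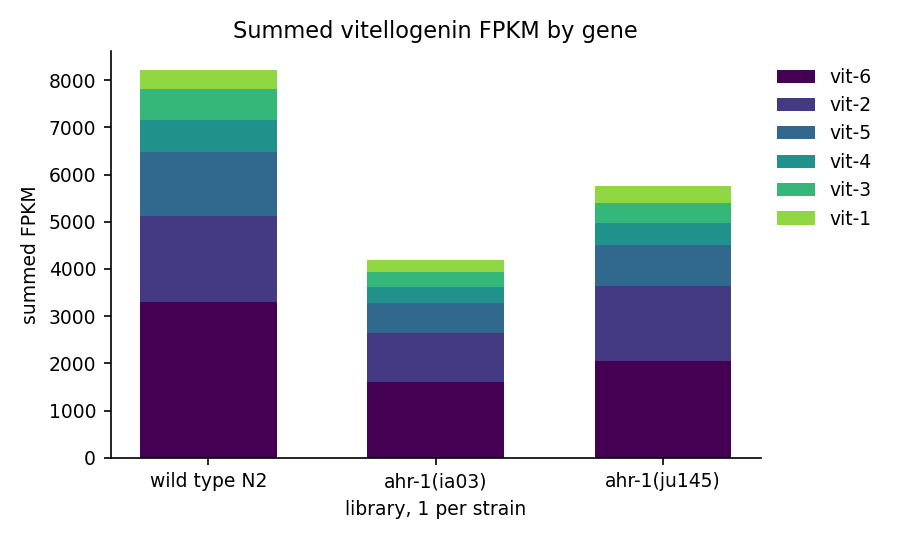
Summed FPKM of the 6 vitellogenin genes in each library, stacked by gene, with 1 library per strain. The bars reach 8211 in N2, 4183 in ia03 and 5751 in ju145, and vit-6 is the largest segment in each.

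The comparison of ia03 with wild type asked how yolk genes stand in animals with this allele. Differences are log2 ratios of FPKM + 1, for features with status OK in the authors' table and an FPKM of at least 1 in either library, and a difference of at least 2-fold counted as one of size. All 6 vit genes were below wild type, where 52.5% of the 14783 features measured and 49.9% of the 9028 protein-coding ones with at least 1000 nt of exon were. Of the 6, 4 were at least 2-fold lower, against 4.26% of all features and 0.709% of those longer protein-coding ones, a set chosen after the values were seen. The median log2 difference of the 6 genes was -1.02, against -0.02 over all features. All 7 members passed the filter, so none is left out of these counts.

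The 4 genes were vit-5 (log2 difference -1.10), vit-4 (-1.05), vit-6 (-1.04) and vit-3 (-1.004). All lay close to the limit, and vit-3 was at 0.498 of its wild type FPKM. vit-2 (-0.80) and vit-1 (-0.70) were short of it, at 0.576 and 0.613 of wild type. After rescaling the libraries by their upper quartile 1 of the 6 genes was past the limit, vit-5, and after rescaling by the FPKM sum without the 100 highest features none was. The log2 difference of rme-2 was -0.30, and 23.2% of all features were lower than that.

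The authors' deposited table, which compares 2 libraries and not replicated strains, gave q-values of 0.00258 for vit-4, 0.00435 for vit-3, 0.00835 for vit-6 and 0.00907 for vit-5. Its q-values were 0.0562 for vit-1, 0.121 for vit-2 and 0.129 for rme-2. The authors' deposited table called the first 4 of these genes differentially expressed, as it did in the lower direction for 1.89% of the 16854 features with status OK, of which 3.41% were lower at a q-value under 0.05.

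In ju145 the genes vit-3 to vit-6 were lower than wild type by less than 2-fold, while vit-1, vit-2 and rme-2 were near it. All 6 vit genes were below wild type, but so were 71.7% of the 14686 features measured, whose median was -0.18, and 76.1% of the longer protein-coding ones. None of the 6 was at least 2-fold lower, where 3.54% of all features and 0.758% of the longer protein-coding ones were. The log2 differences were -0.68 for vit-6, -0.64 for vit-5, -0.61 for vit-3 and -0.55 for vit-4. Under each of the 5 rescalings these 4 genes remained below wild type.

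vit-1 (-0.21) and vit-2 (-0.20) stood at about the median of all features in ju145, and after rescaling by the upper quartile both were above wild type, by 0.03 and 0.04. The log2 difference of rme-2 was -0.09, and it was above wild type after 4 of the 5 rescalings, by up to 0.15. The median of the 6 vit genes was -0.58, but it rests on 2 sets of values that do not meet. Without the genes whose locus another feature shares in the files (vit-3, vit-4 and vit-6) it was -0.21. That leaves vit-1, vit-2 and vit-5, and the feature at vit-6 had no FPKM and overlaps the gene by 0 nt in the reference. Without vit-3 and vit-4 only, a choice added after the values were seen, the median was -0.42. In the authors' deposited table no member had a q-value under 0.05, where 7.63% of features with status OK were lower at that limit and 2.93% were called differentially expressed and lower, and the smallest was 0.312 for vit-3.

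**Figure D3:**
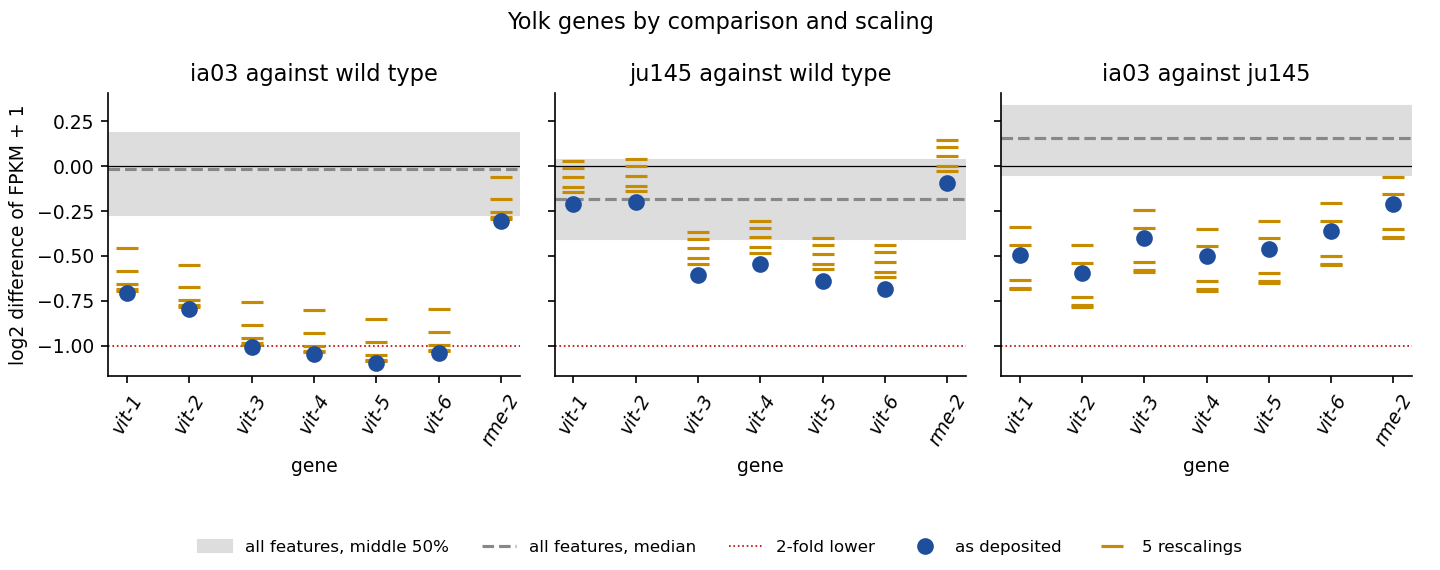
Log2 difference of FPKM + 1 for each member in the 3 comparisons, as deposited (circles) and after 5 rescalings (dashes), beside the median and middle 50% of all measured features. As deposited, all 7 genes lie below that band in ia03, rme-2 just below it. In ju145 vit-3 to vit-6 lie below it and vit-1, vit-2 and rme-2 inside it. Between the mutants all 7 genes lie below it.

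Set directly against each other, which leaves the wild type library out, the mutants differed in the same direction for every member. All 6 vit genes were lower in ia03 than in ju145, where 30.0% of the 14384 features measured and 21.8% of the longer protein-coding ones were. The log2 differences ran from -0.59 for vit-2 to -0.36 for vit-6, with a median of -0.48 against 0.15 over all features. None reached 2-fold, where 1.38% of all features and 0.213% of the longer protein-coding ones did in that direction (1.28% of all features in the other). For rme-2 the difference was -0.21. Under each of the 5 rescalings all 7 genes remained lower in ia03.

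vit-3 and vit-4 each share their locus with a second feature in the files, a short non-coding RNA with more FPKM than the vit gene itself. The Ensembl annotation places T27A10.8 (188 nt) on the strand opposite to vit-3 with 171 nt inside that gene, and F59D8.3 (176 nt) opposite to vit-4 with 150 nt inside it. In both cases the rest of the short feature lies outside the vit gene. How the libraries were stranded was not given in the sources used here, so reads of the vit gene and of its antisense partner may not be told apart. Values of features this short also rest on a steep length correction.

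The FPKM of T27A10.8 was 9261 in N2, 2327 in ia03 and 3658 in ju145. That of F59D8.3 was 12425 in N2, 2629 in ia03 and 4359 in ju145. Both were highest in wild type and lowest in ia03, as the vit genes were. The log2 differences in ia03 were -1.99 for T27A10.8 and -2.24 for F59D8.3, each further from wild type than the vit gene it overlaps. In ju145 they were -1.34 and -1.51, past 2-fold where vit-3 and vit-4 were not.

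FPKM of T27A10.8 was 14.1 times that of vit-3 in N2, 7.12 times in ia03 and 8.48 times in ju145. FPKM of F59D8.3 was 18.3 times that of vit-4 in N2, 8.02 times in ia03 and 9.38 times in ju145. If all fragments of the short feature belonged to the vit gene, counted at its full reference length, the vit-3 locus would stand at 0.411 of its N2 level in ia03 and 0.565 in ju145, and the vit-4 locus at 0.376 and 0.553. These combined ratios, chosen after the values were seen, are lower than those of the vit genes alone. Another short non-coding feature, K07H8.16, shares the locus of vit-6 in the files and was listed at 0 in all libraries. In the Ensembl annotation its overlap with vit-6 is 0 nt. No other feature shared the loci of vit-1, vit-2, vit-5 or rme-2.

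**Figure D4:**
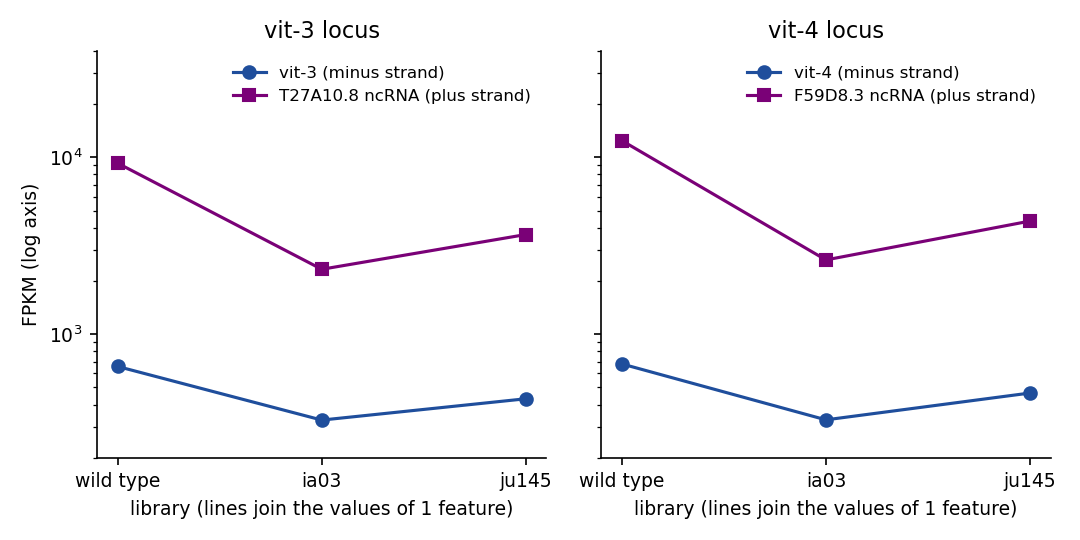
FPKM on a log axis of vit-3 and vit-4 (circles) and of the short non-coding feature on the opposite strand of each (squares) in the 3 libraries, 1 per strain. Both features of a locus are highest in wild type and lowest in ia03, and the non-coding ones span the wider range.

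The tissues that make and take up yolk were read next through lists of marker genes, to set the members beside them. In whole animals fewer cells of a type and less RNA per cell cannot be told apart. All 12 intestine markers were above 0 in each library, and their summed FPKM was 6426 in N2, 6508 in ia03 and 7350 in ju145. The sum includes 2 markers without OK status, ges-1 and act-5 (1335, 1492 and 1966), which the counts below leave out. In ju145 act-5 and asp-1 stood furthest above wild type of the list, so the higher sum is not a rise common to the markers. Of 10 measured in ia03, 4 were above and 6 below wild type, where 52.5% of all features were below. The median was -0.01, its sign changed under rescaling, and none was past 2-fold. In ju145 2 were above and 8 below, near the 71.7% below among all features, with a median of -0.15 whose sign also changed. Large single differences were those of the cathepsin B-like protease gene cpr-1, at an FPKM of 229 in N2, 349 in ia03 and 211 in ju145, and of the aspartyl protease gene asp-1, at 1607, 1786 and 2314. The sodium-proton exchanger gene nhx-2 had 79.5, 84.9 and 61.7, and the intermediate filament gene ifc-2 had 251, 209 and 222. In ia03 the intestine markers thus showed no common difference of the size seen in the vit genes. In ju145 this holds for vit-3 to vit-6, while vit-1 (-0.21) and vit-2 (-0.20) were close to the intestine median. Rescaled to the intestine list, the vit median was -1.01 in ia03 and -0.43 in ju145, where vit-1 was at -0.06 and vit-2 at -0.05.

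Markers of the oocyte, where rme-2 acts, had a summed FPKM of 2376 in N2, 1962 in ia03 and 2314 in ju145, and all 21 were above 0. This sum also includes markers without OK status, which the counts below leave out. In ia03 13 of the 14 measured oocyte genes were below wild type, none by 2-fold, where 52.5% of all features were below. Their median was -0.24, near the -0.30 of rme-2. The eggshell genes perm-2 (425 in N2, 276 in ia03 and 390 in ju145) and perm-4 (343, 241 and 324) were furthest from wild type of those measured. The chitin synthase gene chs-1 had 34.6, 27.2 and 24.7, and egg-3, a gene of the egg-to-embryo transition, had 23.9, 21.7 and 18.7. In ju145 13 of 16 were below it, where 71.7% of all features were. The median there was -0.08, above the -0.18 of all features and near the -0.09 of rme-2, and the sign of both changed under rescaling. Rescaled to the oocyte list, rme-2 was at -0.06 in ia03 and 0.00067 in ju145.

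Other lists covered the germline, sperm and somatic gonad, to be read against the 52.5% of all features below wild type in ia03 and the 71.7% in ju145. All 14 germline genes were below wild type in both mutants, none by 2-fold. Their median was -0.23 in ia03, but 0.0039 after rescaling to the oocyte list, and -0.31 in ju145, or -0.08 after rescaling by the upper quartile. The synaptonemal complex gene syp-1 was furthest, with an FPKM of 30.3 in N2, 20.8 in ia03 and 20.00 in ju145. The germline RNA-binding protein gene gld-1 had 311, 223 and 285.5. All 13 sperm genes were below wild type in both, with medians of -0.70 and -0.71, and 1 passed 2-fold, spe-12 in ju145, at an FPKM of 10.8, 8.51 and 4.54 in the 3 libraries. Of the 5 somatic gonad genes lag-2 was below the floor of FPKM 1, and the other 4 were below wild type in both mutants, with medians of -0.36 and -0.24, the latter -0.03 after rescaling by the upper quartile. Of these, the gap junction gene inx-8 had an FPKM of 53.1, 36.1 and 36.7. The part of these tissues in the values of the vit genes and rme-2 was not tested.

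Genes of the moulting cycle and the late cuticle vary with age within L4, the stage at which vit genes start, and in ia03 their median lay furthest above wild type of the 9 lists. In ia03 10 of 12 measured were above wild type, where 52.5% of all features were below it. Of these, 4 were at least 2-fold higher (2.52% of all features were), and the list median was 0.81. The 4 were fbn-1, a fibrillin-like matrix gene, at an FPKM of 9.56 in N2 and 27.5 in ia03, the apical matrix genes noah-2 (43.1 and 107) and noah-1 (48.9 and 118), and the protease inhibitor gene mlt-11 (24.1 and 52.4). The adult cuticle collagen gene col-19, named after its values were seen, went the other way, with an FPKM of 1806 in N2, 941 in ia03 and 1572 in ju145. Its log2 difference was -0.94 in ia03 and -0.20 in ju145. The collagen gene col-12 was also below wild type in both mutants, with an FPKM of 1533, 1089 and 1475 in the 3 libraries. In ju145 10 of 12 were above wild type, where 71.7% of all features were below it. None was 2-fold higher, where 1.36% of all features were, and the median was 0.15. Whether the cultures differed in age within L4 was not tested, and with 1 culture per strain age and genotype cannot be told apart.

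Known regulators of vit transcription differed little. Of 23 measured in ia03, 15 were above wild type and 8 below, where 52.5% of all features were below. Their median was 0.09, against -0.02 over all features, and 1 was at least 2-fold higher, as 2.52% of all features were. That gene was mab-3, a DM-domain factor that represses vit genes in the intestine of males, at an FPKM of 2.06 in N2, 5.29 in ia03 and 2.09 in ju145. At this low level its log2 difference in ia03 was 1.04 with a pseudocount of 1 and 0.54 with a pseudocount of 5. In ju145 11 of 24 were above and 13 below, none by 2-fold, where 71.7% of all features were below. Their median was -0.02, against -0.18 over all features, and its sign changed under rescaling.

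Among the factors that act on the vit genes in the intestine, chosen for their roles after the values were seen, the homeodomain gene ceh-60 had an FPKM of 33.8 in N2, 24.5 in ia03 and 24.2 in ju145. It was the lowest of the list in ia03, with log2 differences of -0.45 and -0.46 in the 2 mutants. Its partner unc-62, also a homeodomain gene, had 30.5, 27.5 and 28.2, and the GATA factor gene elt-2 had 19.4, 20.3 and 21.6. The second intestinal GATA factor gene elt-7 had 12.2, 12.5 and 8.30. The larval regulators nhr-25 (2.42, 4.25 and 3.88) and hbl-1 (1.81, 3.00 and 3.05) were above wild type in both mutants at low levels.

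Genes of receptor endocytosis and yolk processing, which act downstream of rme-2, lay near wild type. In ia03 14 of 20 measured were above and 6 below, where 52.5% of all features were below. The median was 0.11 and none was past 2-fold. In ju145 6 of 19 were above and 13 below, near the share of all features, with a median of -0.08 whose sign changed under rescaling. The largest difference was that of rme-6, a guanine nucleotide exchange factor gene for RAB-5, with an FPKM of 5.10 in N2, 8.86 in ia03 and 5.79 in ju145. The retromer gene vps-35 had 33.5, 32.3 and 24.3, the amphiphysin gene amph-1 had 36.5, 36.1 and 27.2, and the clathrin adaptor gene apa-2 had 18.98, 24.8 and 17.96.

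Other genes with LDL receptor repeats or a part in lipoprotein assembly lay on both sides of wild type. Of 4 measured, 3 were above wild type in ia03 and 3 in ju145, with medians of 0.13 and 0.10. Over all features 52.5% were below wild type in ia03 and 71.7% in ju145. lrp-1, a megalin-like receptor gene of the epidermis, had an FPKM of 13.2 in N2, 25.4 in ia03 and 15.3 in ju145. dsc-4, the gene for the microsomal triglyceride transfer protein that loads lipid onto such particles, had 76.9, 81.8 and 66.9. lrp-2 had 9.55, 10.8 and 10.1, and egg-2, an oocyte surface gene needed for fertilization, had 26.3, 24.4 and 29.0.

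**Figure D5:**
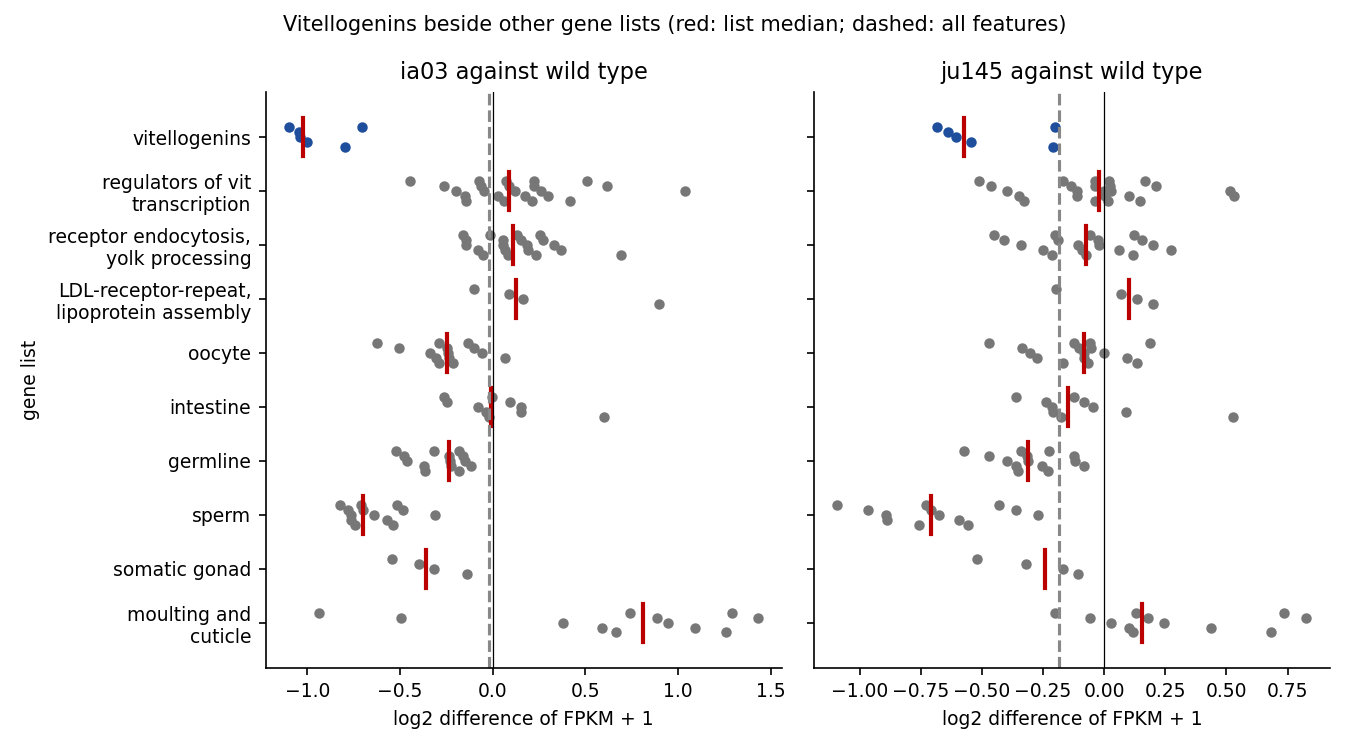
Log2 difference of FPKM + 1 from wild type for each measured gene of 9 lists and for the 6 vit genes, in ia03 (left) and ju145 (right), on separate axes. Red bars are list medians and the dashed line is the median of all features, -0.02 in ia03 and -0.18 in ju145. The vit median lies at -1.02 and -0.58, that of the sperm list at -0.70 and -0.71 and that of the moulting list at 0.81 and 0.15.

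Likeness of pattern was measured as the distance between genes over the 2 log2 differences from wild type, among 3763 named features with FPKM of at least 10 in all libraries. Both differences share the wild type library, and 3 libraries hold little pattern, so this is a description. Nearest to the vit median were the major sperm protein genes msp-59, msp-51 and msp-19 and the short secreted-peptide genes fipr-9 and fipr-6, at distances of 0.04 to 0.08. The FPKM of msp-59 was 1924 in N2, 953 in ia03 and 1258 in ju145. These genes have 316 to 384 nt of exon, and copies of each family share reads. Within a distance of 0.1 of the vit median there were 10 features. That median does not stand for all 6 genes. vit-1 (-0.70 in ia03 and -0.21 in ju145) and vit-2 (-0.80 and -0.20) lay further than 0.1 from it. So, by little, did vit-6 (-1.04 and -0.68).

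Around rme-2 the pattern was more common, with 68 features within 0.1. Nearest were the linker histone gene hil-4, the transthyretin-like gene ttr-7, tag-147, the saposin-like gene spp-1 and abu-1, at distances of 0.01 to 0.04. The FPKM of hil-4 was 221 in N2, 178 in ia03 and 205 in ju145.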

How the data were processed

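Whole L4 animals of 3 strains gave 1 messenger RNA library each. Per the submitters' processing notes, the tools named are Cuffdiff, Cufflinks (1.3.0), TopHat (1.3.1), Bowtie2 (2.0.2), SAMtools (0.1.16) and FastQC, without their roles. Build and annotation were not given in the sources used here. The authors deposited 2 tables with FPKM values per feature, and p-values and q-values from comparing 2 libraries, per the file headers. Read counts cannot be had from FPKM, and abundant RNAs of a library lower all its other values. Both tables hold the same wild type library, with equal FPKM at 45343 features.

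Log2 ratios of FPKM + 1 were computed with Python 3.11.15, numpy 2.4.6 and pandas 2.3.3, with the filter given in the text. The code of the size rule was run on simulated data with planted differences well past the limit. That run checks the code only, and says nothing of the spread between these libraries. Strand, length and biotype came from Ensembl release 115 (WBcel235), matched by sequence name for 44880 features. No coordinates of that build are printed. The 5 rescalings used the median ratio, the upper quartile, the sum without the 100 highest features, the intestine list and the oocyte list. Sequences and promoter motifs are not analysed here.

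The members and the 9 gene lists were chosen with earlier results of these data known. Named genes are all members, features sharing their loci, up to 4 list members with the largest differences, list members counted among 5 or fewer, and the 5 nearest in pattern to the vit median and to rme-2. Genes named outside this rule are marked as such.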

Additional observations from a re-analysis of the deposited data

How the results depend on the processing

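The direction of the vit median did not change under any of the 11 alternatives (other pseudocounts and floors, 5 rescalings, and leaving out genes with shared loci). It ranged from -1.02 to -0.78 in ia03, from -0.58 to -0.21 in ju145 and from -0.67 to -0.32 between the mutants. All vit genes lie far above the floors and pseudocounts, so those settings could hardly change it. The -0.21 in ju145, found without vit-3, vit-4 and vit-6, lies near the -0.18 of all features. It rests on vit-1, vit-2 and vit-5 alone. vit-6 was left out for a feature that had no FPKM and overlaps it by 0 nt in the reference. The number of vit genes at least 2-fold lower in ia03 was 4 as deposited, and 3 with a pseudocount of 5. After rescaling it was 3 by the median ratio, 3 by the intestine list and 1 by the upper quartile. It was 0 by the sum without the highest features and 0 by the oocyte list. With a limit of 4-fold it was 0 (1.29% of all features). With a limit of 1.5-fold it was 6 in ia03 (13.2% of all features), 3 in ju145 (13.8% of all features) and 1 between the mutants (3.41% of all features). Without vit-3 and vit-4 the median was -0.92 in ia03 and -0.42 in ju145. That choice and the share of fragments were added after seeing the data. The share of yolk transcripts depends on the unit. As fragments roughly estimated from length, over features of at least 300 nt, it was 2.88% in N2, 1.55% in ia03 and 2.05% in ju145. Depth is unknown, so the precision of the low FPKM values cannot be given. No paired analysis was possible because each strain has 1 library.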

Other observations

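The measured features next to the members in the files, looked at after the values were seen, did not share one direction. unc-78, which lies 58 nt from vit-5, had an FPKM of 26.7 in N2, 28.3 in ia03 and 24.4 in ju145. spp-14, 1512 nt from vit-1, had 3809, 2694 and 3499 in the same order. acn-1, 3958 nt from vit-2, had 23.7, 47.2 and 29.5. K07H8.7, 1027 nt from vit-6, had 3.17, 0.972 and 1.60, and on either side of rme-2 Y52D5A.1 had 8.01, 2.53 and 2.88 and T11F8.4 had 11.8, 5.99 and 5.13.

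The X chromosome, which holds vit-1 to vit-5, had a median log2 difference of 0.08 over 2100 features in ia03 and -0.07 over 2083 in ju145. The medians of chromosome IV, which holds vit-6 and rme-2, were -0.05 and -0.22.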
